A study of Mus musculus with 9 samples.

Results

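The products described here are 9 proteins that neutrophils store or carry in large amounts, encoded by Lcn2, Ltf, Camp, Ngp, Elane, Mpo, Prtn3, S100a8 and S100a9. They were chosen by gene symbol. All 9 genes were found among 19938 measured genes, each through 1 probe set that the platform annotation assigns to that gene alone. Expression was measured on 9 one-colour Affymetrix arrays of CD4-enriched T cells from the spleen of C57BL/6J mice, kept 72 h in culture with anti-CD3 and anti-CD28 on beads. The 3 groups, of 3 arrays each, were cells of wild-type mice, cells of CD69-/- mice, and cells of wild-type mice that also received anti-CD69 at 24 h, then a secondary antibody that cross-links it at 48 h (both diluted 1 in 200), called CD69-activated here. The labels call the arrays of a group biological replicates without naming mice, and p-values therefore reflect only the spread among these arrays, which may be technical. No control-antibody culture is described, so antibody exposure and CD69 ligation cannot be told apart.

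Neutrophils fill their granules in steps during maturation in the bone marrow. Azurophil granules, made first, hold myeloperoxidase and the serine proteases, and specific granules, made later, hold lactoferrin, the cathelicidin and neutrophilic granule protein. The calgranulins S100A8 and S100A9 lie mostly in the cytosol, where they form the zinc-binding complex calprotectin. Lipocalin 2 is a specific granule protein too, but macrophages and epithelial cells also make it on inflammatory stimulation, and it withholds iron from bacteria by binding their siderophores. CD69, a surface protein of the C-type lectin family, appears early on activated lymphocytes. The comparisons ask which of these genes changed without CD69 and which changed when CD69 was engaged.

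Lcn2 was the member that changed in both comparisons with wild type, and it changed in opposite directions. It was lower in CD69-/- cells and higher in CD69-activated cells, by about the same amount each time. The other 8 genes passed the test in neither of these comparisons. To set a specific granule gene called against wild type beside one that was not, the RefSeq promoter windows of Lcn2 and of Ltf follow, from 250 bases before to 50 after the start site (build GRCm38.p6). The Lcn2 window lies at chr2:32387690-32387989 on the minus strand and the Ltf window at chr9:111019042-111019341 on the plus strand. Each is written 5′ to 3′ along its gene, and capitals mark matches on either strand to the C/EBP motif TTNNGNAA or the PU.1 motif GAGGAA, named for transcription factors of the granulocyte lineage.
Lcn2: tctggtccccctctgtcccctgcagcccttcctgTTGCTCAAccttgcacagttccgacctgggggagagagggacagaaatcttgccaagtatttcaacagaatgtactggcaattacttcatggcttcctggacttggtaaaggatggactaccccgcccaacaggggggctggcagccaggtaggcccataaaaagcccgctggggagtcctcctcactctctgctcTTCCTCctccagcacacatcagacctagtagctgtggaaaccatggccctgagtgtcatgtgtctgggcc
Ltf: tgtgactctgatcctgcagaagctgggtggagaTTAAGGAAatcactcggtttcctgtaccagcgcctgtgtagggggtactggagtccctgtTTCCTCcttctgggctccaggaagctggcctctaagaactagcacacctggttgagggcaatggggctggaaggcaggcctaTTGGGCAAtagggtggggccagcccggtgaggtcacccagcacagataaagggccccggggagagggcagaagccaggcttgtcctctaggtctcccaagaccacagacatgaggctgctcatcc
The Lcn2 window held 1 C/EBP match at -216 to -209 and 1 PU.1 match at -20 to -15 from the start site. The Ltf window held 2 C/EBP matches, at -217 to -210 and -75 to -68, and 1 PU.1 match at -157 to -152. Both windows thus held both kinds of motif. Of the 9 member windows, 5 held the C/EBP motif and 6 the PU.1 motif, against 40.7% and 28.3% of all 32851 windows of 300 bases in the RefSeq table. None held the STAT motif TTCNNNGAA (8.3% of all windows) or the NF-kappaB consensus (4.51%), and no 2 matches in a member window overlapped. A match describes letters in the window and is no evidence of binding.

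Cd69 was lowest on the CD69-/- arrays, though no source used here says whether its probes lie in the deleted part. Cd69 ranged from 12.03 to 12.37 in wild type, from 11.74 to 11.84 in CD69-activated and from 9.49 to 9.65 in CD69-/- arrays, as log2 RMA values. Xist was between 5.77 and 6.26 in CD69-/- arrays and between 12.48 and 13.01 in the other 6, a male and a female pattern, so genotype and sex cannot be told apart in any comparison with CD69-/- cells. Correlations over probe sets were 0.996 to 0.998 within groups and 0.984 to 0.996 between them. The array medians were 7.40 to 7.43 in CD69-/-, 7.43 to 7.48 in wild type and 7.52 to 7.56 in CD69-activated arrays. In bulk RNA, fewer cells of a type and less RNA per cell cannot be told apart.

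Lcn2, the first of the specific granule genes, encodes the siderophore-binding lipocalin. Its log2 value was 8.76, 8.71 and 8.62 on the wild-type arrays, 7.98, 7.92 and 8.12 on the CD69-/- arrays and 9.26, 9.29 and 9.67 on the CD69-activated arrays. All CD69-/- arrays lay below all wild-type arrays, and all CD69-activated arrays lay above them, with no overlap between any pair of groups. Lcn2 was 1.61-fold lower in CD69-/- than in wild-type cells (log2 difference -0.69, SE 0.0964, 95% interval -0.90 to -0.48, limma adjusted p = 0.000500, n = 3 per group). It was 1.63-fold higher in CD69-activated than in wild-type cells (0.71, SE 0.0964, interval 0.49 to 0.92, limma adjusted p = 0.000361). Set directly against each other, CD69-activated cells had 2.63-fold more than CD69-/- cells (1.40, interval 1.18 to 1.61, limma adjusted p = 1.07e-06). The wild-type arrays enter both of the first comparisons, so those are not independent of each other. Over 17 alternative settings in each comparison, among them leaving out each array, all 3 calls held, with limma adjusted p from 3.30e-05 to 0.00396 for CD69-/- and from 8.71e-05 to 0.00328 for CD69-activated against wild type, and from 7.25e-08 to 6.53e-05 between the last pair. The highest array, CD69-activated replicate 3, carried part of the size: without it the difference from wild type was 0.57.

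**Figure D1:**
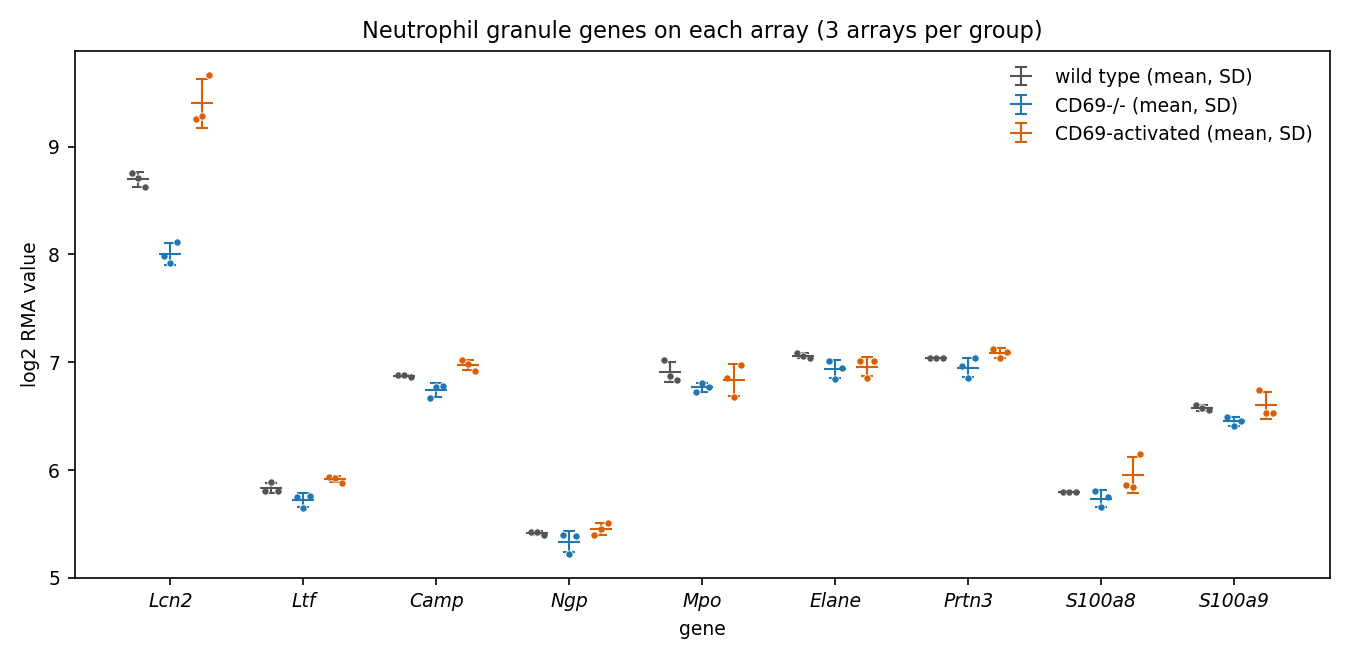
Log2 RMA value (vertical axis) of each of the 9 genes (horizontal axis) on each array, as points, with the group mean as a horizontal tick and 1 SD as bars, for wild-type, CD69-/- and CD69-activated cells. Lcn2 separates into 3 levels, with means of 8.70, 8.01 and 9.40, while the points of each other gene lie close together.

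The other 3 specific granule genes were nearly level across the groups. Ltf, which encodes the iron-binding lactoferrin, read 5.80, 5.89 and 5.80 (wild type), 5.75, 5.65 and 5.76 (CD69-/-) and 5.94, 5.93 and 5.88 (CD69-activated). Its CD69-/- arrays lay just below the wild-type arrays, while the CD69-activated and wild-type arrays overlapped. Camp, which encodes the antimicrobial cathelicidin of mice, read 6.88, 6.88 and 6.86 (wild type), 6.66, 6.77 and 6.78 (CD69-/-) and 7.02, 6.98 and 6.92 (CD69-activated). Here the 3 groups did not overlap, but the gaps between neighbouring groups were small. Ngp, which encodes a cathelicidin-related granule protein, read 5.43, 5.43 and 5.39 (wild type), 5.40, 5.22 and 5.38 (CD69-/-) and 5.40, 5.45 and 5.51 (CD69-activated), and its groups overlapped. The Camp difference between CD69-/- and wild type was -0.13 (limma adjusted p = 0.0569). It passed when the dimmest genes were left out (adjusted p = 0.0435) and without CD69-activated replicate 3 (0.0492), while the difference itself stayed at -0.13, and did not pass in the other 15 alternatives.

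The azurophil granule genes showed no called change against wild type. Mpo, which encodes the peroxidase that makes hypochlorous acid, read 7.02, 6.87 and 6.83 (wild type), 6.72, 6.80 and 6.77 (CD69-/-) and 6.85, 6.68 and 6.97 (CD69-activated). The CD69-/- arrays lay just below wild type, and the CD69-activated arrays spanned nearly the whole range of the other groups. Elane, which encodes neutrophil elastase, read 7.08, 7.05 and 7.04 (wild type), 7.01, 6.84 and 6.95 (CD69-/-) and 7.01, 6.86 and 7.01 (CD69-activated). Both other groups lay just below wild type. Prtn3, which encodes proteinase 3, read 7.04 on every wild-type array, 6.96, 6.86 and 7.04 without CD69, and 7.13, 7.04 and 7.10 with CD69 activated. Its wild-type value recurred in both other groups. Elane differed from wild type by -0.10 in CD69-activated cells (limma adjusted p = 0.202), a difference that was called after median centring (-0.18, adjusted p = 0.038, with 27.6% of all genes called) and cyclic loess (-0.15, adjusted p = 0.0452, with 23.9%).

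The calgranulin genes were not called against wild type either. S100a8 read 5.80 on all 3 wild-type arrays, 5.81, 5.65 and 5.75 (CD69-/-) and 5.86, 5.84 and 6.14 (CD69-activated). The last value, on CD69-activated replicate 3, stood apart from the other 8, as the Lcn2 value of that array did within its group. S100a9, whose product pairs with that of S100a8, read 6.60, 6.57 and 6.55 (wild type), 6.49, 6.41 and 6.45 (CD69-/-) and 6.74, 6.53 and 6.53 (CD69-activated). Its highest value was on CD69-activated replicate 1, so the pair did not peak on the same array.

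Several of the genes are neighbours on their chromosomes. In the RefSeq gene order S100a8 and S100a9 are adjacent protein-coding genes on chromosome 3, and Prtn3 and Elane are adjacent on chromosome 10. Camp, Ngp and Ltf share a stretch of chromosome 9, with 8 protein-coding genes between Camp and Ngp and 20 between Ngp and Ltf. None of these 7 clustered genes passed the test against wild type in either comparison, where 15.1% and 23.8% of all genes were called. Between CD69-activated and CD69-/- cells Camp, Ltf, S100a8 and Prtn3 passed, beside 42.6% of all genes. Lcn2 and Mpo stand alone on chromosomes 2 and 11.

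Counted over the members, 1 of 9 was called lower in CD69-/- cells, against 15.1% of all genes called and 6.78% called lower, and 1 of 9 was called higher in CD69-activated cells, against 23.8% called and 10.1% called higher, so the count itself was near the background. By size Lcn2 was less ordinary, since 1.15% and 1.58% of all genes were called with a change of at least 1.5-fold. In CD69-/- cells all 9 differences were negative, as were 54.5% of all genes, and 6 members did not overlap with wild type in that direction, against 15.9% of genes. Without Lcn2 the median of the other 8 was -0.12 (range -0.14 to -0.064), beside -0.0091 over all genes. The 95% intervals of the other 8 reached from -0.30 for Mpo to 0.095 for S100a8. In CD69-activated cells the other 8 had a median of 0.044 (range -0.10 to 0.15), beside 0.017 over all genes (7 of the 9 differences were positive, as were 57.0% of all genes), and intervals from -0.23 for Mpo to 0.31 for S100a8. Lcn2, S100a8 and Camp lay above wild type without overlap (18.1% of all genes) and Elane below it (17.9%). Changes of the size seen for Lcn2 lie outside all these intervals, while smaller ones within them could not be resolved.

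**Figure D2:**
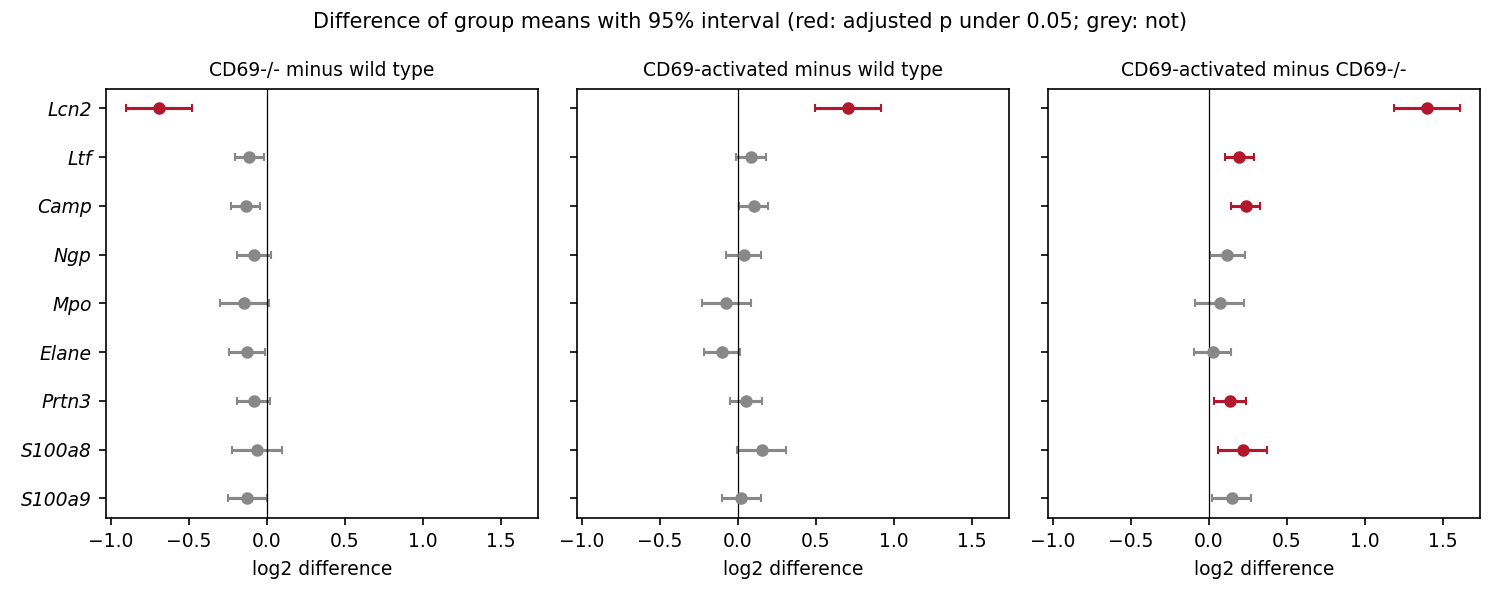
Log2 difference between group means (horizontal axis) for each gene (vertical axis) in the 3 comparisons, with 95% intervals from the limma fit. Red marks an adjusted p under 0.05: Lcn2 alone at -0.69 and 0.71 in the first 2 panels, and 5 genes in the third.

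Between CD69-activated and CD69-/- cells 5 of the 9 genes were called, all higher in CD69-activated cells, against 42.6% of all genes called in either direction and 21.6% called higher. Only Lcn2 was also changed at least 1.5-fold (4.02% of all genes). All 9 differences were positive, as were 59.6% of all genes, and 5 members lay above CD69-/- without overlap (27.3% of all genes). The called genes beside Lcn2 were Camp (0.24, adjusted p = 0.00102), S100a8 (0.22, 0.0319), Ltf (0.20, 0.00362) and Prtn3 (0.14, 0.0383). S100a9 (0.15, 0.0584), Ngp (0.12, 0.0803), Mpo (0.070, 0.447) and Elane (0.024, 0.731) did not pass. The 4 smaller calls depended on how the arrays were scaled. The array medians of the groups differed by 0.127, and once each array was centred on its median only Lcn2 was called (1.27, limma adjusted p = 3.88e-07, with 46.9% of all genes called), while Camp stood at 0.11 (adjusted p = 0.0624), S100a8 at 0.089 (0.361), Ltf at 0.069 (0.231) and Prtn3 at 0.0089 (0.904). The centring used the medians of all 35556 probe sets. It moved the median difference over the 19938 tested genes from 0.035 to -0.092, and that of the 8 members without Lcn2 from 0.14 to 0.014. After cyclic loess, where the median over all genes was -0.0097, Lcn2, Camp (0.14) and Ltf (0.11) were called, beside 37.6% of all genes. The S100a8 call was lost without CD69-activated replicate 3 (0.12, adjusted p = 0.0694), CD69-/- replicate 2 (0.18, 0.117) or CD69-/- replicate 3 (0.22, 0.0692), and the Prtn3 call was lost in 7 of 9 such fits. Camp and Ltf were called in all 9.

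Olfactory receptor probe sets moved with these small differences. These genes, which sense odorants in the nose and were taken after the values were seen as examples of genes with no known role in spleen cells, numbered 1015. Their mean log2 values had a median of 5.06, with 4.08 and 6.75 as the 5th and 95th percentiles, and 4 of the 9 members had means below the upper value in every group. Between CD69-activated and CD69-/- cells 239 of them were called higher and 1 lower, with a median of 0.084, beside 0.14 for the 8 members without Lcn2. After median centring 36 were called higher and 125 lower, with a median of -0.043. The RMA values also repeat between arrays: Prtn3 had exactly the same value on 5 of 9 arrays, the 3 wild-type arrays among them, and Elane on 3. Of all genes 29.3% had 1 value on at least 3 arrays, and such repeats lower the spread that the fit sees. Lcn2 had 9 different values. The values carry no detection call, and the part of array scaling in the small differences was not tested beyond these refits.

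**Figure D3:**
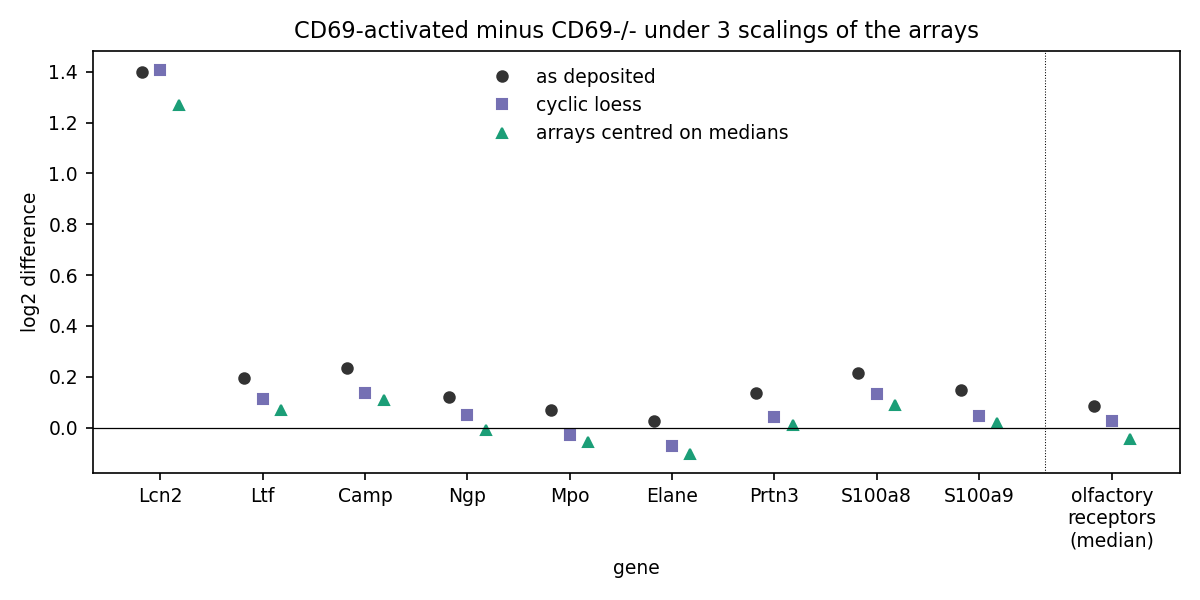
Log2 difference between CD69-activated and CD69-/- cells (vertical axis) for each gene (horizontal axis) with the values as deposited, after cyclic loess and with arrays centred on their medians, beside the median of 1015 olfactory receptor genes. Lcn2 stays at 1.27 to 1.41 under all 3, while Elane, Mpo, Ngp and the olfactory receptor median cross 0.

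The genes whose values over the 9 arrays followed Lcn2 most closely among 17886 compared were Phlpp1, a phosphatase of the AKT pathway (Pearson r = 0.994), Slc25a37, the mitochondrial iron importer mitoferrin 1 (0.993), and Dgkd, a diacylglycerol kinase (0.991). With 3 groups of 3 arrays such values mostly reflect the order of the groups, and they are given as a description. Slc25a37 was called in both comparisons, at -0.33 in CD69-/- and 0.36 in CD69-activated cells, smaller than the Lcn2 differences in both. The closest matches of S100a8 were Dnm3, Cfap161 and Ptx3 (0.974 to 0.983), those of Camp Samd7, Olfr93 and Olfm2 (0.984 to 0.988), those of Ltf Hsd17b14, Pirt and Fam163b (0.971 to 0.976) and those of Prtn3 Ackr4, Dcst1 and Col22a1 (0.981 to 0.989). No gene was among the closest 3 of more than 1 member, and an olfactory receptor gene, Olfr93, was among those of Camp. Between members, Lcn2 correlated with Camp at 0.875 and with Ltf at 0.868 over the 9 arrays, but with Elane at 0.185.

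Genes of other granule proteins split in the same way, with a few large changes among many small ones. Mmp8, the neutrophil collagenase of specific granules, read 6.975, 6.997 and 6.975 on the wild-type, 6.009, 5.652 and 5.595 on the CD69-/- and 8.329, 8.376 and 8.303 on the CD69-activated arrays. Like Lcn2 it was lower in all CD69-/- and higher in all CD69-activated arrays, with larger differences of -1.23 (limma adjusted p = 4.45e-06) and 1.35 (1.77e-06). Lyz2, a lysozyme of azurophil granules that macrophages also express strongly, had differences of -0.76 and 0.35, both called, the second lost after median centring (0.27, limma adjusted p = 0.0698) and without wild-type replicate 2 (0.0725), wild-type replicate 3 (0.0943) or CD69-activated replicate 3 (0.0919). Over all 19938 genes 1351 were called lower and 1667 higher in CD69-/- cells, and 2727 lower and 2015 higher in CD69-activated cells. Of 19 measured genes of specific and gelatinase granules other than the members, 7 fell and 1 rose in CD69-/- cells (median -0.13). After median centring 5 were lower and 1 higher there. In CD69-activated cells 4 rose and 4 fell (median 0.029, and 1 higher and 5 lower after median centring). Itgam, an integrin of neutrophils and macrophages, fell by 0.88 in CD69-/- cells, and Pglyrp1, a peptidoglycan-binding granule protein, rose by 0.45. In CD69-activated cells, where Lcn2 rose, Pglyrp1 (-0.21), Mmp25 (-0.31) and Mmp9 (-0.25) were called lower. Mmp25 was lower in CD69-/- cells too (-0.42, not followed over the alternatives). The Mmp9 call was lost with only the 2 groups compared (limma adjusted p = 0.0912), with a replicate block (0.0597) and without some single arrays of each group (0.0537 to 0.132). Of 11 other azurophil granule genes 3 fell and none rose in CD69-/- cells (median -0.062, and 2 lower after centring). In CD69-activated cells 2 rose and 3 fell (median -0.060, and none higher and 5 lower after centring). Ctsg, the cathepsin G gene and the closest relative of Elane and Prtn3 in the list, fell by 0.45 in CD69-activated cells and was at -0.067 in CD69-/- cells (adjusted p not under the threshold). Cd63, of the same list, was called lower in both, at -0.44 in CD69-/- and -0.30 in CD69-activated cells. The second call was lost without wild-type replicate 1 or 2 or CD69-activated replicate 1 or 3 (limma adjusted p = 0.0588 to 0.0796).

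Markers that define neutrophils had the group order of Lcn2 in their mean level, by small steps that rest on Mmp8. Their calls went in both directions. Of 8 measured defining markers 2 fell and 1 rose in CD69-/- cells, and 2 rose and 1 fell in CD69-activated cells (1 higher and 4 lower after median centring), with medians of -0.095 and -0.012. Their mean log2 level was 7.06 to 7.11 on wild-type, 6.87 to 6.95 on CD69-/- and 7.15 to 7.19 on CD69-activated arrays, without overlap. Mmp8, at -1.23 and 1.35, had the largest differences of the 8 markers and carried this order. The median of -0.012 in CD69-activated cells did not share the rise. The part of these markers in the Lcn2 differences was not tested. Of them Il1r2 rose and Mmp8 and Retnlg fell without CD69, and Mmp8 and Cd177 rose and Il1r2 fell after activation. The Cd177 difference (0.17) was not called after median centring (0.085, limma adjusted p = 0.212), after cyclic loess (0.12, 0.0893) or without any wild-type array or CD69-activated replicate 1 or 2 (0.0705 to 0.0899). Csf3r, the receptor for the neutrophil growth factor G-CSF, had means of 6.22, 6.17 and 6.27 in wild-type, CD69-/- and CD69-activated cells. Cxcr2, the chemokine receptor that draws neutrophils to inflamed tissue, had means of 5.72, 5.62 and 5.65, and neither gene was called in any of the 3 comparisons. Cxcr2 was called lower in CD69-activated than in wild-type cells after median centring (-0.15, limma adjusted p = 0.0311) and cyclic loess (-0.11, 0.043), and lower in CD69-/- cells without wild-type replicate 3 (-0.13, 0.0486). Ly6g, the surface antigen used to identify mouse neutrophils, had means of 6.41, 6.55 and 6.30, the reverse order of Lcn2, and of its differences only that between CD69-activated and CD69-/- cells was called (-0.25). Its difference from wild type was called in CD69-activated cells after median centring (-0.19, limma adjusted p = 0.0399) and in CD69-/- cells without CD69-/- replicate 3 (0.21, 0.028). Il1r2, a decoy receptor for interleukin 1 that T cells can also express, opposed Lcn2 too, at 0.34 in CD69-/- and -0.75 in CD69-activated cells. In the longer list of mature neutrophil genes 7 of 21 fell and 1 rose in CD69-/- cells (median -0.096), and 3 fell and 1 rose in CD69-activated cells (median 0.015, and 7 lower and 1 higher after centring). The C-type lectin gene Clec4d was at -0.72 and 0.56, in the directions of Lcn2. The related Clec4e fell by 0.82 in CD69-/- cells and was at 0.023 in CD69-activated cells (limma adjusted p = 0.782). Alox5 (-0.36 and -0.43) and Alox5ap (-0.58 and -0.15), of the same list, were called lower in both comparisons, unlike Lcn2. The smaller call of each gene was not followed over the alternatives. Among 10 granulocyte transcription factors Spi1, which encodes PU.1, fell in both comparisons (-0.50 and -0.22), Irf8 fell (-0.23) and Gfi1 rose (0.25) in CD69-/- cells, and the other 7 passed in neither comparison with wild type. After median centring 3 of the 10, Irf8 among them, were called lower in CD69-activated cells.

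Markers of macrophages mostly moved with Lcn2 in CD69-/- cells, and a few did in CD69-activated cells. Of 17 measured monocyte and macrophage markers 11 fell and 1 rose in CD69-/- cells (median -0.27, and 9 lower and 1 higher after centring). In CD69-activated cells 3 rose and 5 fell (median -0.020, and 2 higher and 6 lower after centring). Of all genes 15.1% and 23.8% were called in these 2 comparisons. Their mean log2 level was 7.66 to 7.71 on wild-type, 7.31 to 7.36 on CD69-/- and 7.69 to 7.70 on CD69-activated arrays. Adgre1, a surface antigen used to identify mouse macrophages, was at -1.86 and 0.85, and Cd14, the co-receptor for bacterial lipopolysaccharide, was at -0.47 and 0.46, both called and both in the directions of Lcn2. The complement gene C1qb opposed this in CD69-activated cells, at -0.88 and -0.53. Ccr2, of the same list, opposed Lcn2 in both comparisons, at 0.51 (limma adjusted p = 7.97e-05) and -0.18 (0.0352). These 2 calls of Ccr2 were not followed over the alternatives. B cell markers fell in 11 of 11 cases in CD69-/- cells (median -0.51), where T cell markers rose in 10 of 11 (median 0.37). B cell markers were bright in these CD4-enriched cells. Their mean log2 level was 11.91 to 11.96 on wild-type, 11.35 to 11.43 on CD69-/- and 11.84 to 11.91 on CD69-activated arrays. For T cell markers it was 11.21 to 11.30, 11.68 to 11.70 and 11.16 to 11.20. In CD69-activated cells 2 B cell markers rose and 3 fell (median -0.072, and 1 higher and 6 lower after centring), and 3 T cell markers fell and none rose (median -0.042, and 5 lower and none higher after centring). Myeloid progenitor markers fell in 5 of 9 cases in CD69-/- cells (median -0.15, and 3 after centring), and 3 fell and 1 rose in CD69-activated cells (median -0.036, and 4 lower and none higher after centring). Erythroid markers fell in 4 of 8 cases in CD69-/- cells (median -0.46), and 1 rose and 1 fell in CD69-activated cells (median 0.075, and 1 higher and 2 lower after centring). The part of cell composition in the Lcn2 differences was not tested.

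**Figure D4:**
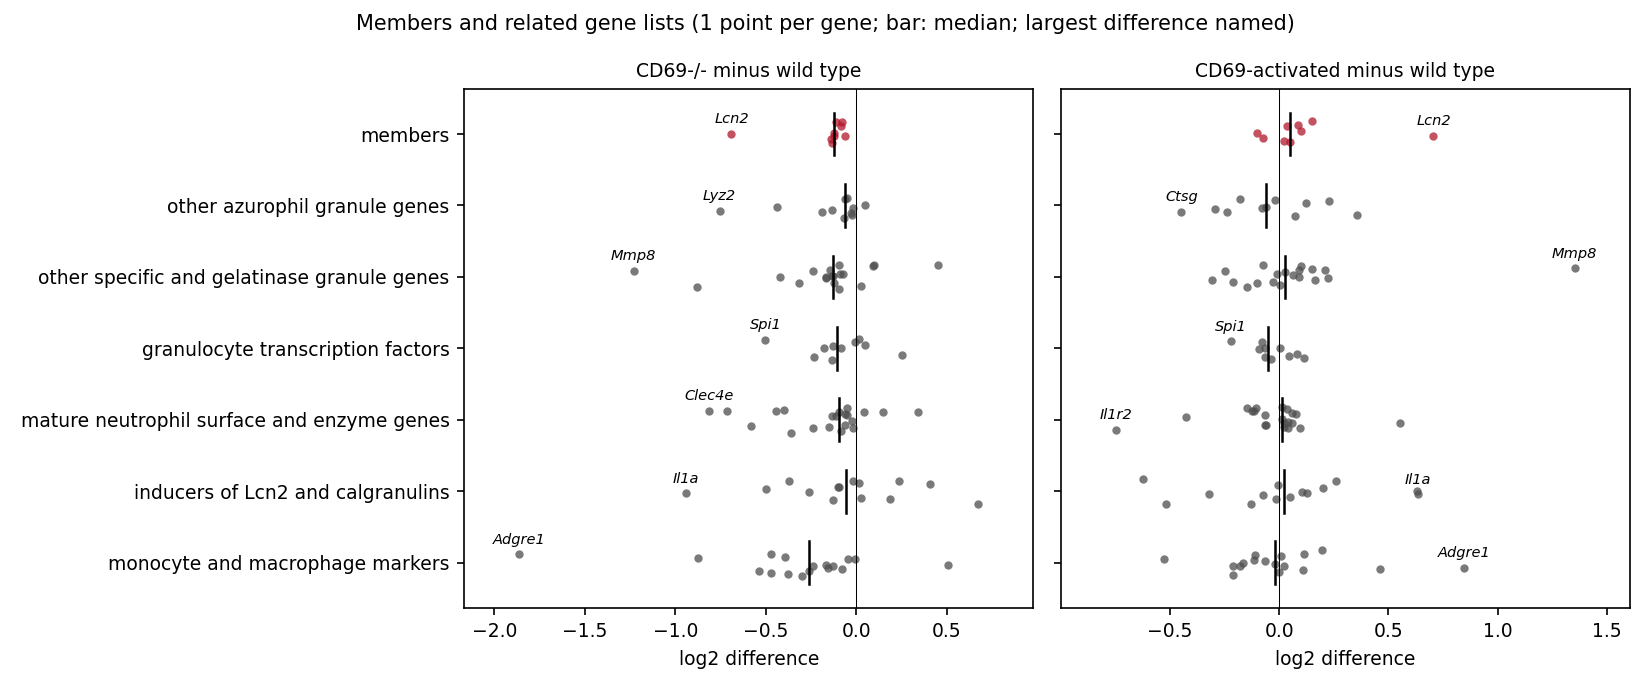
Log2 difference (horizontal axis) of each gene, as points, for the 9 members in red and 6 related lists in grey (vertical axis), in CD69-/- and CD69-activated cells against wild type. Bars mark medians, the gene farthest from 0 in each list is named, and Lcn2, Mmp8, Il1a and Adgre1 lie far to the left in the first panel and far to the right in the second.

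Cytokines known to induce Lcn2 and the calgranulins changed in both directions. Il1b, encoding interleukin 1 beta, read 7.95 on all 3 wild-type arrays, 7.45, 7.43 and 7.47 (CD69-/-) and 8.53, 8.70 and 8.51 (CD69-activated). Its differences of -0.50 and 0.63 had the directions of Lcn2 and no group overlapped another. Il1a, encoding interleukin 1 alpha, was at -0.94 and 0.64. Both genes had the same value on all 3 wild-type arrays, and such repeats lower the spread that the fit sees. Tnf, encoding tumour necrosis factor, went the other way, at 0.67 and -0.52. Il6, encoding interleukin 6 and named from outside the naming rule after its values were seen, did so too. It was at 0.23 (limma adjusted p = 0.00834) and -0.32 (0.000863). Csf2 was called lower in both comparisons, at -0.37 (0.00975) and -0.62 (0.000287). Over the list of 14 measured inducers and their signalling genes 4 rose and 5 fell in CD69-/- cells, and 5 rose and 3 fell in CD69-activated cells (medians -0.059 and 0.023). After median centring the CD69-activated count was 4 higher and 5 lower. Named from outside the naming rule after their values were seen, Il17a, encoding a cytokine of Th17 cells that induces Lcn2, was at -0.13 (limma adjusted p = 0.0449) and -0.074 (0.196). The first call was lost in 12 of 17 alternatives, among them median centring (-0.082, 0.198), cyclic loess (-0.093, 0.131) and leaving out any array but CD69-/- replicate 3 and CD69-activated replicate 1, and the second difference was called after median centring (-0.16, 0.0107) and cyclic loess (-0.12, 0.0392). Nfkbiz, a nuclear cofactor needed for Lcn2 induction, was at 0.013 and 0.052, neither called. The related cytokine gene Il17f, also outside the rule, had the directions of Lcn2, at -0.26 (limma adjusted p = 0.000723) and 0.20 (0.00295). Of the receptor genes, Il17rc was at -0.097 (0.16) and 0.13 (0.0443), and Il17ra at -0.020 and -0.0055, neither called. The Il6, Il17f and Il17rc calls, and the Csf2 call in CD69-/- cells, were not followed over the alternatives.

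Receptors and inhibitors of these proteins were measured as well. Of 8 receptor genes 3 fell and 1 rose in CD69-/- cells (median -0.041, and 3 lower and 2 higher after median centring), and 4 rose and none fell in CD69-activated cells (median 0.076, and 1 higher and 3 lower after centring). Cd36, a scavenger receptor reported to bind the S100A8 and S100A9 complex, was at -0.97 and 0.24, the second call being lost after centring (0.16, limma adjusted p = 0.15), cyclic loess (0.19, 0.103) and without any of 5 arrays, namely wild-type replicates 2 and 3 and each CD69-activated array (0.0783 to 0.143). Lrp1, an endocytic receptor for lactoferrin, was at -0.45 and 0.32. Slc22a17, a receptor for lipocalin 2 likewise picked from outside the rule, was at 0.13 and 0.14, both called. The call in CD69-/- cells was lost in 8 of 17 alternatives, among them leaving out any wild-type or CD69-/- array. The call in CD69-activated cells was lost after median centring (0.060, limma adjusted p = 0.354) and without wild-type replicate 3 (0.11, 0.0726) or CD69-activated replicate 2 (0.13, 0.0586). Of 7 inhibitors of neutrophil serine proteases, 1 fell and none rose in each comparison with wild type, and after median centring 2 were lower in CD69-activated cells. The gene called in both was Serpinb1a, an inhibitor of elastase, cathepsin G and proteinase 3, at -0.53 in CD69-/- and -0.75 in CD69-activated cells. Of the protease genes, Elane and Prtn3 were not called against wild type with the values as deposited. Ctsg was called lower in CD69-activated cells (-0.45) but not in CD69-/- cells.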

How the data were processed

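Per the submitters' processing notes, the authors ran RMA (oligo, under R 2.12.1) and deposited log2 values. Its settings, annotation and build were not given in the sources used. RMA normalizes arrays to each other and compresses large fold changes. Of 35556 probe sets, 21789 had 1 platform symbol, 1621 several and 12146 none; symbols of 21698 were updated by gene ID through the RefSeq gene table. The brightest probe set stood for a gene.

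Differences came from limma (version 3.58.1, R 4.3.3): lmFit with a mean for each of the 3 groups over 9 arrays, and eBayes (with 6 residual and 4.78 prior degrees of freedom, two-sided, Benjamini-Hochberg over 19938 genes, called under 0.05). The procedure was tested on simulated data. Members, gene lists, the naming rule (all members; up to 3 called genes per list with the largest difference; 3 genes most like each called member; Csf3r, Cxcr2 and Ly6g were added to it) and alternatives were chosen with earlier results of these data known. All 9 members matched the RefSeq promoter table. Alternatives were median centring, cyclic loess, a filter that drops the dimmest genes, averaged probe sets, X and Y genes left out, a fit on only the 2 groups of a comparison, a robust prior with an intensity trend, a replicate block and leaving out each array. Figures used matplotlib 3.10.9 in Python 3.11.15.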

Additional observations from a re-analysis of the deposited data

How the results depend on the processing

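Lcn2 was called in the same direction under every alternative run in all 3 comparisons. The count of members called in CD69-/- against wild type, 1 as reported, was 2 without the dimmest genes (Camp added) and 2 with only the 2 groups compared (S100a9 added), and 1 to 2 leaving out single arrays. In CD69-activated against wild type it was 2 after median centring and 2 after cyclic loess (Elane added), and 1 leaving out any array. Between CD69-activated and CD69-/- cells, 5 as reported, it was 1 after median centring, 3 after cyclic loess, 3 with only the 2 groups compared and 3 to 6 leaving out single arrays. Ngp, S100a8 and Ltf fell under the filter on dim genes and have no value there. Counts over all genes stayed within 1.5 times, but median centring changed their split between higher and lower calls, from 1667 and 1351 to 2462 and 886 in CD69-/- against wild type, from 2015 and 2727 to 764 and 4741 in CD69-activated against wild type and from 4314 and 4187 to 1354 and 7990 between the last pair. The median difference over all genes moved with it, from -0.0091 to 0.037, from 0.017 to -0.065 and from 0.035 to -0.092 in these 3 comparisons.

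Uncalled member differences near 0 changed sign. Against wild type in CD69-activated cells S100a9 was -0.060 after median centring and -0.033 after cyclic loess, Ngp -0.044 and -0.0064, and Prtn3 -0.030 and -0.0002; leaving out arrays gave -0.051 to 0.058 for S100a9 and -0.14 to 0.0043 for Mpo. Between CD69-activated and CD69-/- cells Elane was -0.10 and -0.073, Mpo -0.058 and -0.030, and Ngp -0.0087 after centring; leaving out arrays gave -0.020 to 0.076 for Elane and -0.0001 to 0.15 for Mpo. Among other genes named, also uncalled, Cpa3 in CD69-/- against wild type was 0.041 after centring and -0.040 to 0.044 leaving out arrays, and Nfkbiz -0.016 after cyclic loess and -0.0098 to 0.041. In CD69-activated against wild type Csf3r was -0.040 after centring and -0.011 after cyclic loess, Nfkbiz -0.030 after centring, and Clec4e -0.059 after centring and -0.012 to 0.057 leaving out arrays.

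Deviations from the group means correlated at -0.242 to 0.142 between same-numbered arrays of different groups, beside -0.143 to 0.196 between the others. No shared effect of the numbers was visible, but this cannot settle whether samples were paired, which the labels do not state. With a replicate block 1, 1 and 6 members were called in the 3 comparisons (S100a9 added in the last), and 2609, 4345 and 8055 genes. Only 3 arrays per group and probe sets near background limit what can be seen of the 8 other members.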

Other observations

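Granulocytes other than neutrophils were followed with 13 measured markers of eosinophils, basophils and mast cells. In CD69-/- cells 6 fell and 1 rose (median -0.22), and in CD69-activated cells 5 fell and 1 rose (median -0.015, and 6 lower and none higher after median centring). Cpa3, a mast cell and basophil carboxypeptidase, fell by 1.02 and Fcer1a, the binding chain of the high-affinity IgE receptor, by 0.62 in CD69-activated cells. Mcpt8, a basophil protease, was at -0.85 in CD69-/- and -0.55 in CD69-activated cells, so it was lower than wild type in both, unlike Lcn2. Il5ra, the interleukin 5 receptor chain of eosinophils and some B cells, fell by 0.93 in CD69-/- cells.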
